A study of Oikopleura dioica with 67 samples.

Results

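The RNAs described here encode 5 energy enzymes of the planktonic tunicate Oikopleura dioica: glyceraldehyde-3-phosphate dehydrogenase (Gapdh), citrate synthase (Cs), glutamate dehydrogenase (Glud1), the ADP/ATP translocase SLC25A5 and nucleoside diphosphate kinase (Nme2). A unigene is an assembled transcript model, and all unigenes carrying 1 of these 5 symbols in the staged expression table were taken, which gave 11 of 19277 unigenes, 10122 of which carry a symbol. The symbols were selected on their high values in eggs and in adult males of the same staged libraries, as far as the name of the set tells, so levels in unfertilized eggs, 2.5 hpf tadpoles and adults are given as a description with no test (hpf, hours post fertilization). Fertilized eggs are close to the chosen group, so tests of a fall from them were favoured by the choice. Gapdh, Glud1 and Nme2 have 3 unigenes each, and Cs and SLC25A5 have 1 each. The animals were wild type, from a laboratory culture founded from Japanese collections, and no treatment is named in the labels. The staged set has 43 libraries in 15 groups: unfertilized egg, fertilized egg, 2-cell, 4-cell, 8-cell, 16-cell, 32-cell, 1.5 hpf, 2.5 hpf tadpole larva, 3 hpf hatched larva, 5 hpf early organogenesis, 8 hpf late organogenesis and 10 hpf juvenile with 3 libraries each, and adult females and adult males with 2 each. The hemisphere set has 24 libraries in 6 groups of 4, numbered 3 to 6: samples titled whole embryo, animal and vegetal, each at 8 cells and at 12 hpf. The titles do not say how the animal and vegetal samples of 12 hpf were obtained. Hemisphere at 12 hpf refers below to these titles only, and differences there are not read as places within a juvenile. Adult libraries are labelled by sex and not by organ, so testis was not sampled separately, and adult ages are not given.

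Glycolysis splits glucose to pyruvate in the cytosol, and glyceraldehyde-3-phosphate dehydrogenase carries out its oxidative step. Citrate synthase condenses acetyl-CoA with oxaloacetate at the entry to the mitochondrial citrate cycle, and glutamate dehydrogenase feeds that cycle with 2-oxoglutarate from glutamate. The ADP/ATP translocase exchanges cytosolic ADP for mitochondrial ATP across the inner membrane, and nucleoside diphosphate kinase passes the terminal phosphate of ATP to other nucleoside diphosphates. Eggs are known for a store of maternal RNA that is cleared during early development, and in mammals male germ cells use separate copies of several energy enzymes.

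Expression is in RPKM (reads scaled to unigene length and to library size), so levels of different unigenes are compared per length. Differences are log2 ± SE of RPKM + 1, which understates the change of weakly expressed RNAs, and adjusted p-values are from limma over all unigenes tested, with a threshold of 0.05. Staged libraries held 7785352 to 95644620 reads, of which 18.93% to 49.03% aligned, and for the hemisphere set depth is known only in relative terms, over a 1.75-fold range. No counts per unigene were used, so no counting interval is given, and in whole animals fewer cells of a type cannot be told apart from less RNA per cell. The labels do not say whether replicates are separate cultures, and the p-values then measure only the spread between these libraries, which may be technical. In each staged comparison a sample number recurs between libraries of a compared group, so these libraries may share material. The tissue label reads embryo for every library, adults included; the 28 unigenes of a sperm and axoneme marker list summed to 13827 and 15855 RPKM in males against 120 and 175 RPKM in females. Of those 28, 19 had the higher mean in males and 9 in females, and Odf3 DN9751 alone, at 8895 and 7485 RPKM, made up 55.2% of the male sum. An egg and cell cycle list of 18 unigenes summed to 2692 and 2733 RPKM in females against 182 and 336 RPKM in males. Some libraries stand apart. Over all unigenes, 5 hpf library 3 and hatched larva library 1 correlated with the mean of their group at 0.866 and 0.882, the lowest among staged libraries, and vegetal 12 hpf library 3 did so at 0.893, the lowest of the hemisphere set. Whole-embryo 8-cell library 6 had 9493 unigenes at 1 RPKM or more, against 7821 to 8099 in the other libraries of its group.

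A single Gapdh unigene, DN12018 (OD_K25COV10_DN12018_c2_g5_i1), held practically all Gapdh RNA from egg to tadpole. Unfertilized eggs had 2361, 1755 and 1902 RPKM, and fertilized eggs had 2090, 2323 and 2042. The level stayed between 1459 and 3338 RPKM in every 2-cell, 4-cell and 8-cell library. It was 317, 388 and 913 RPKM at 16 cells, below every earlier library. At 32 cells it was 371, 206 and 295 RPKM, a fall from the fertilized egg of 2.92 ± 0.53 on the log2 scale (adjusted p = 0.000163). At 1.5 hpf it was 48.9, 103 and 54.7 RPKM, a further difference of -2.10 ± 0.53 (adjusted p = 0.00408). The groups of these comparisons did not overlap, but under quantile normalization, which gives each library the same distribution, the second call was lost (-2.02, adjusted p = 0.141). The lowest group was 5 hpf, with 4.52, 6.75 and 17.4 RPKM, and 10 hpf juveniles had 73.1, 57.9 and 52.3 RPKM. Adult males had 4478 and 5361 RPKM, the highest values of any library, and females had 1293 and 922 RPKM. In males this unigene ranked 16 of 19277 by mean RPKM.

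The other Gapdh unigenes appeared late. DN16953 (OD_K25COV10_DN16953_c0_g1_i1) was at or under 0.328 RPKM in all libraries up to hatching and at 0.401, 7.12 and 0 RPKM at 5 hpf. At 8 hpf it stood at 117, 86.3 and 109 RPKM, a difference from 5 hpf of 5.54 ± 0.41 (adjusted p = 5.24e-13), and 6.46 without 5 hpf library 2. Juveniles had 61.1, 77.5 and 45.9 RPKM, females 13.8 and 7.68, and males 7.29 and 22.4. DN14516 (OD_K25COV15_DN14516_c0_g2_i2) stood at 1.74, 0.426 and 2.47 RPKM in hatched larvae and 7.28, 5.08 and 2.92 at 5 hpf, a difference of 1.29 ± 0.35 (adjusted p = 0.00344). The groups did not overlap, but the call was lost without hatched larva library 2 (adjusted p = 0.0594), under quantile normalization (0.11, adjusted p = 0.89) and in a fit of these libraries alone (0.247). Within the Gapdh RNA, DN12018 made up 99.3% in tadpoles, 91.0% in hatched larvae, 52.8% at 5 hpf and 10.5% at 8 hpf. DN16953 made up 83.0% at 8 hpf, and both held about equal shares in juveniles, 46.5% each. In adults DN12018 again made up 98.6% in females and 99.6% in males.

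Cs, represented by DN11801 (OD_K21COV15_DN11801_c0_g8_i1), was highest in the unfertilized egg and lower at each step to the 4-cell stage. Unfertilized eggs had 3794, 4233 and 4529 RPKM, and no library of any later stage was as high. Fertilized eggs had 3528, 1902 and 3103 RPKM, 2-cell embryos 1385, 1629 and 1606, and 4-cell embryos 727, 624 and 342. These 4 groups in succession did not overlap with their neighbours. The 8-cell libraries spread widely, at 512, 102 and 735 RPKM, and overlapped with the 4-cell stage. At 16 cells the values were 55.2, 70.9 and 98.3 RPKM and at 32 cells 155, 55.9 and 61.5. The fall from fertilized egg to 32 cells was -5.06 ± 0.48 (adjusted p = 1.89e-09). The minimum was in hatched larvae, at 25.5, 12.5 and 23.8 RPKM. At 5 hpf Cs had 31.2, 38.1 and 29.2 RPKM and at 8 hpf 139, 64.0 and 80.9 RPKM, a difference of 1.43 ± 0.48 (adjusted p = 0.0216). This call was lost without 5 hpf library 1 (adjusted p = 0.0567), 5 hpf library 3 (0.0564) or 8 hpf library 1 (0.122), and in a fit of these libraries alone (0.059). Females had 1270 and 2874 RPKM and males 1031 and 1459, and the sexes overlapped.

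The 3 Glud1 unigenes had separate places. DN17247 (OD_K25COV4_DN17247_c0_g1_i1) stood at 2355 and 3172 RPKM in males and at 0.579 and 0.0843 RPKM in females. In eggs it was at 0.248, 0.195 and 0.0748 RPKM, and it stayed at or under 4.1 RPKM in all but 2 of the 39 stage libraries. The exceptions were tadpole library 3, with 28.9 RPKM, and hatched larva library 1, with 31.7 RPKM. The other hatched larvae had 0.517 and 4.1 RPKM and 5 hpf libraries 0.307, 0.101 and 0.704. The difference between 5 and 3 hpf was -2.23 ± 0.81 (adjusted p = 0.0295), and without hatched larva library 1 it was -1.04 (adjusted p = 0.324), while without library 2 it was -3.26. It was also lost without 5 hpf library 1 (adjusted p = 0.0672) or library 2 (0.0932), under quantile normalization (0.0757), with a pseudocount of 0.1 (0.0508) and in a fit of these libraries alone (0.239).

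DN19676 (OD_K29COV10_DN19676_c0_g3_i1) was the Glud1 unigene of eggs, females and larvae. Eggs had 212, 283 and 174 RPKM, females 393 and 517, and males 12.0 and 9.87. During cleavage the lowest library held 23.1 RPKM, at 8 cells, and tadpoles had 86.0, 67.3 and 122. Hatched larvae stood above every tadpole library, at 260, 452 and 198 RPKM, and 5 hpf libraries had 38, 30.6 and 34.7. The fall from hatching to 5 hpf was -3.02 ± 0.43 (adjusted p = 4.95e-07), without overlap. DN13919 (OD_K21COV6_DN13919_c2_g6_i1) did the opposite over the same hours. It was at or under 1.13 RPKM in all libraries up to the tadpole, at 13.4, 4.64 and 98.4 RPKM in hatched larvae and at 196, 209 and 263 RPKM at 5 hpf. The difference was 3.47 ± 0.50 (adjusted p = 6.33e-07), again without overlap. Without hatched larva library 2 it was 2.55 and without library 3 it was 4.62, and in a fit of these libraries alone the adjusted p was 0.076. It remained between 117 and 192 RPKM at 8 and 10 hpf. DN19676 made up 83.3% of Glud1 RNA in hatched larvae and DN13919 86.3% at 5 hpf. In males the shares were 93.3% for DN17247, 6.35% for DN13919 and 0.383% for DN19676.

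**Figure D1:**
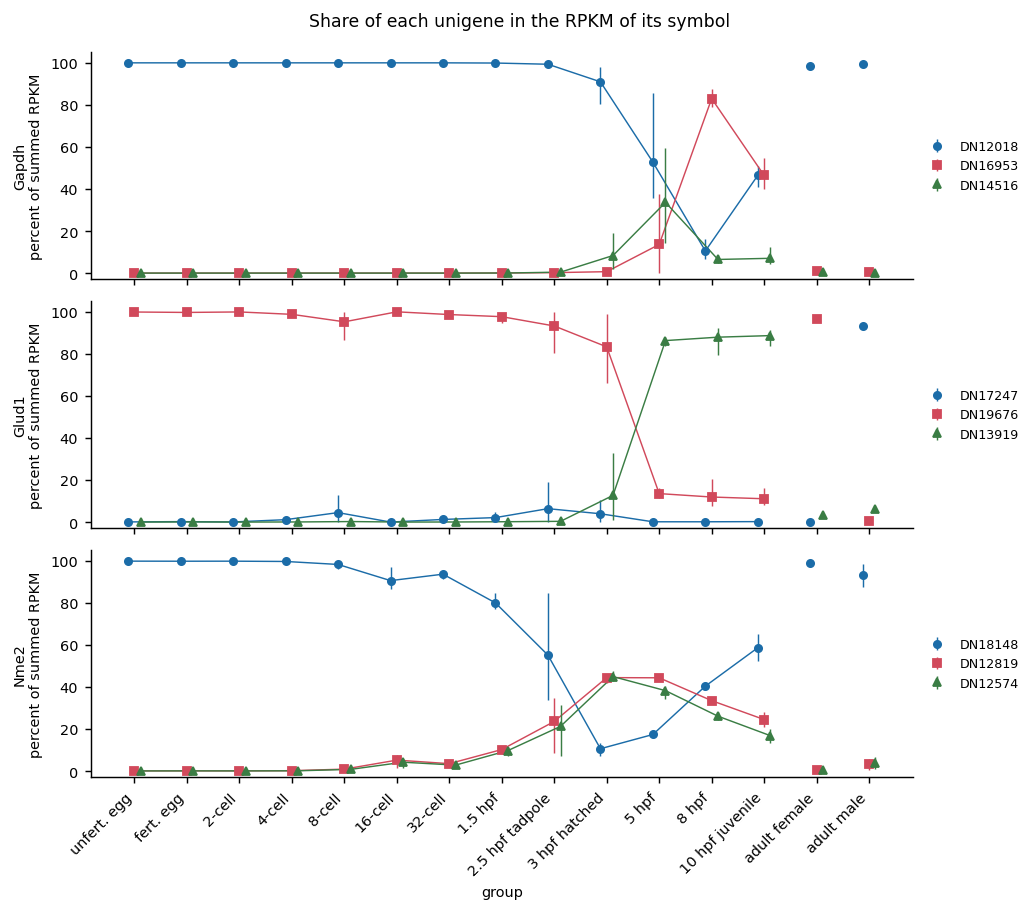
Percent of the summed RPKM of a symbol (vertical axis) held by each of its unigenes in the 15 staged groups (horizontal axis); points are group means and bars run from the lowest to the highest library. DN12018 gives way to DN16953 at 8 hpf for Gapdh, DN19676 to DN13919 at 5 hpf for Glud1, and DN17247 leads in males with 93.3%.

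SLC25A5, represented by DN8053 (OD_K29COV15_DN8053_c0_g3_i1), had the highest level of the set. Males had 29866 and 36500 RPKM, 3.11% of all RPKM and rank 7 among unigenes by mean, while females had 5.65 and 1.43 RPKM. Eggs had 0.896, 0.406 and 0.842 RPKM, so this unigene was not an RNA of the egg. Most stage libraries were under 30 RPKM. Higher values came from single libraries: 56.6 RPKM in 8-cell library 2, 47.8 in 1.5 hpf library 3, 284 in tadpole library 3, 304 in hatched larva library 1 and 48 in 8 hpf library 3. The remaining libraries of those groups were between 1.49 and 29.5 RPKM. None of the 4 staged comparisons passed the test for SLC25A5, each with an SE of 1.28 on the log2 scale. Without hatched larva library 2, the difference between 5 and 3 hpf was called lower (-4.25, adjusted p = 0.0110), as it was under quantile normalization (-3.56, adjusted p = 0.0497).

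Of the Nme2 unigenes, DN18148 (OD_K21COV10_DN18148_c1_g1_i1) was the egg form. Unfertilized eggs had 8832, 5770 and 5807 RPKM and the unigene ranked 8 of all there. Fertilized eggs had 7501, 6160 and 4661 RPKM, 2-cell embryos 6603, 5653 and 8062, and 4-cell embryos 3201, 5104 and 4093. These groups overlapped in part. The 8-cell libraries held 2665, 553 and 3458 RPKM and the 16-cell libraries 137, 127 and 490. The 8-cell library with 553 RPKM is library 2, which was also the lowest for Cs and Gapdh DN12018. At 32 cells the values were 248, 162 and 146 RPKM, and the fall from the fertilized egg was -5.05 ± 0.59 (adjusted p = 1.34e-07). Hatched larvae were lowest, at 88.7, 25.4 and 39.7 RPKM, and juveniles had 701, 626 and 602. From 5 hpf (56.0, 86.4 and 152 RPKM) to 8 hpf (183, 314 and 317) the difference was 1.53 ± 0.59 (adjusted p = 0.0475). That call was lost without 5 hpf library 1 or 2 (adjusted p = 0.208 and 0.0935) or 8 hpf library 2 or 3 (0.118 and 0.133), with a pseudocount of 0.1 (0.0582), under quantile normalization (0.055) and in a fit of these libraries alone (0.0834). Females had 3578 and 4599 RPKM. The males differed from each other, at 2092 and 244 RPKM, in the order of their egg and cell cycle marker sums (336 and 182 RPKM); the part of those markers in the difference was not tested.

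The remaining pair, NME2 DN12819 (OD_K25COV15_DN12819_c0_g1_i1) and Nme2 DN12574 (OD_K21COV8_DN12574_c1_g4_i3), moved together. A second sheet of the authors names both ndk1. Across the 67 libraries their log2 values correlated at a Pearson r of 0.992, a description over libraries that share stages, and reads may be split between them, so the values of each are uncertain. Eggs had 7.57, 6.17 and 4.38 RPKM of DN12819 and 5.95, 4.04 and 2.96 of DN12574. From 32 cells to 1.5 hpf DN12819 went from 6.44, 5.27 and 8.02 to 17.1, 13.8 and 18.5 RPKM, a difference of 1.21 ± 0.35 (adjusted p = 0.0144). DN12574 differed by 1.37 ± 0.38 (adjusted p = 0.0104). Neither group pair overlapped. Both calls were lost without 32-cell library 2 (adjusted p = 0.0714 and 0.0598) or 1.5 hpf library 3 (0.0637 and 0.0536), and under quantile normalization (0.41, adjusted p = 0.565, and 0.53, adjusted p = 0.456). In hatched larvae DN12819 reached 275, 155 and 168 RPKM and DN12574 292, 163 and 155, above all tadpole libraries, and both stayed between 119 and 355 RPKM to the juvenile. In adults they lay between 11.9 and 21.6 RPKM. DN12819 made up 44.4% and DN12574 44.9% of Nme2 RNA in hatched larvae.

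**Figure D2:**
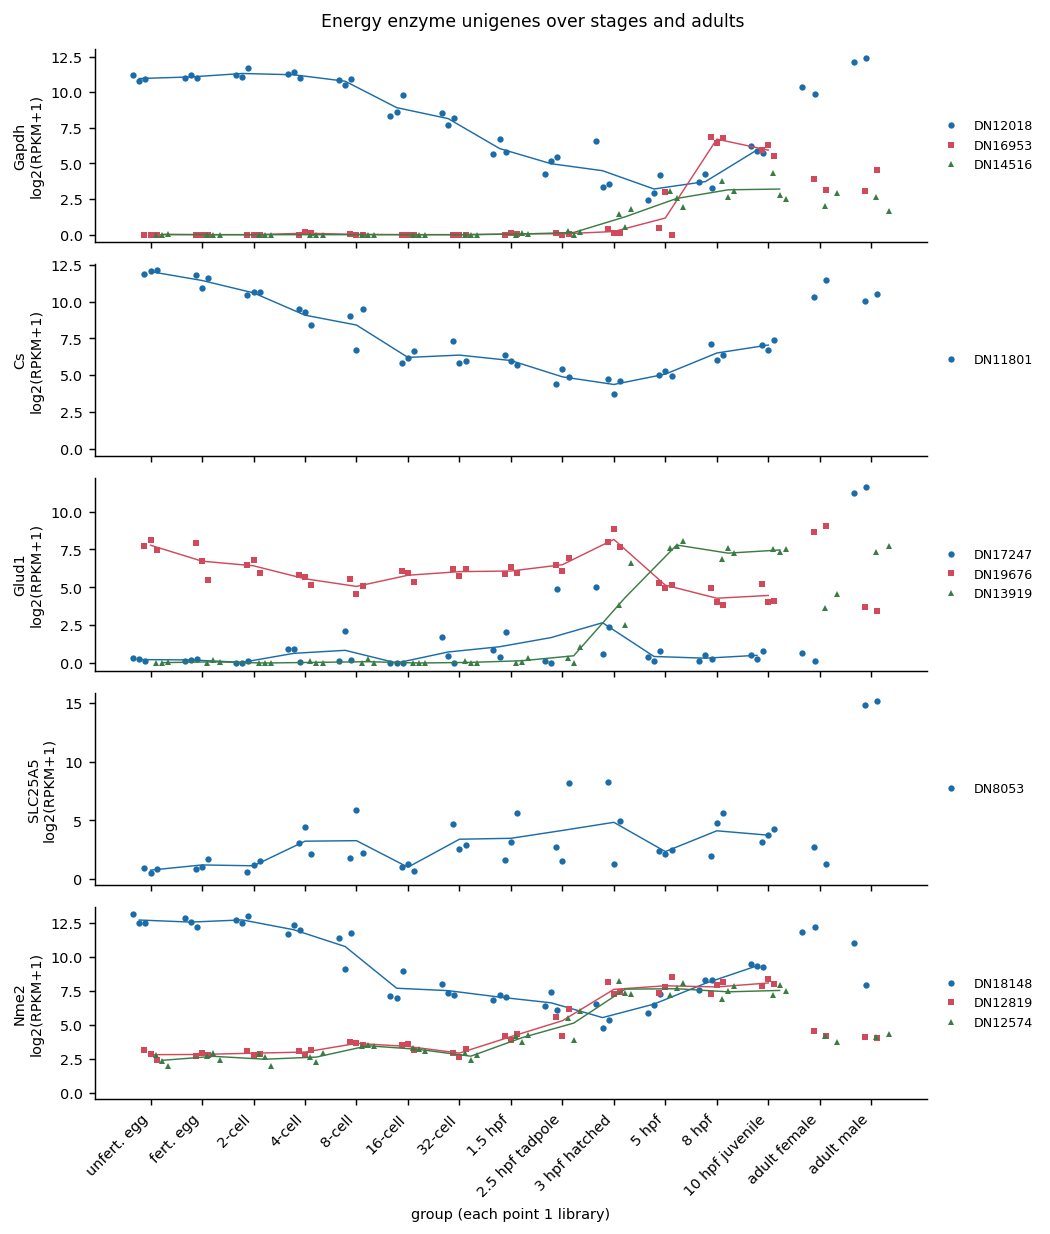
Log2(RPKM + 1) (vertical axis) of the 11 unigenes, a panel for each symbol, in the 15 staged groups (horizontal axis); each point is 1 library and lines join the means of the 13 stages. Gapdh DN12018, Cs and Nme2 DN18148 are high up to the 8-cell stage, while SLC25A5 and Glud1 DN17247 are high in the adult males, at 29866 and 36500 and at 2355 and 3172 RPKM.

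Read against all unigenes, the cleavage decline involved 3 of 11 members, all lower at 32 cells than in the fertilized egg. In that comparison 9.28% of unigenes tested were lower and 1.64% higher. By the name of the set, members were chosen for high egg values in these staged libraries, which favoured such a fall. The decline is therefore a description and no independent support. From 32 cells to 1.5 hpf 2 members were higher and 1 lower, against 11.5% and 3.01% of all unigenes. Under quantile normalization none of these 3 calls was kept. The median difference over all unigenes was 0.17 at that step and 0.31 from 3 to 5 hpf. From 3 to 5 hpf 2 members were higher and 2 lower, against 28.8% and 6.97%, and from 5 to 8 hpf 3 were higher and none lower, against 19% and 10.8%. Successive comparisons share their 32-cell or 5 hpf libraries. The 32-cell libraries shared a sequencing lane and so did the hatched larvae, while the other compared stages were split between lanes. Lane and stage could therefore not be fully separated, except from 5 to 8 hpf. With the lane as a term all 13 calls were kept. Within the lane that held both groups the 3 members that declined differed by -2.85 (Gapdh DN12018), -5.24 (Cs) and -4.68 (Nme2 DN18148), with 3 32-cell libraries against 1 of fertilized egg. From 32 cells to 1.5 hpf the within-lane values were -2.43, 1.33 and 1.52 (3 libraries against 2) for Gapdh DN12018, NME2 DN12819 and Nme2 DN12574. Between 3 and 5 hpf they were 1.57 for Gapdh DN14516, -2.40 for Glud1 DN17247, -3.03 for DN19676 and 3.34 for DN13919. Between 5 and 8 hpf 2 lanes held both groups, with 6.45 and 5.08 for Gapdh DN16953, 1.11 and 1.59 for Cs and 1.04 and 1.78 for Nme2 DN18148. With the lane as a term Gapdh DN12018 was also called lower (-1.66, adjusted p = 0.0118) and DN16953 higher (1.31, adjusted p = 0.0095) at 5 hpf than at 3 hpf, where the fit without it gave adjusted p = 0.0548 and 0.0728. The first was also called without hatched larva library 2 or 3 or 5 hpf library 3 (adjusted p = 0.00935, 0.0128 and 0.0105), and the second without 5 hpf library 1 or 3 (0.0273 and 0.00231).

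The hemisphere set was used to describe the change between cleavage and juvenile in libraries that did not choose the members. Egg RNAs were still abundant at 8 cells, so the choice by high egg values favoured a fall here too. Such a fall is therefore no independent support. In whole embryos, 5 of the 10 members tested were higher and 4 lower at 12 hpf than at 8 cells, against 56.3% and 22.9% of all unigenes. Gapdh DN16953, Gapdh DN14516 and Glud1 DN13919 reached the minimum level for testing only through 12 hpf libraries. They could therefore only come out higher, and their rise is a description. The median difference over all unigenes was 1.17, and each value below is also given relative to it. Glud1 DN17247 was under 1 RPKM in all 24 libraries and was not tested, which leaves the male form out of these comparisons. The RNAs that fell were those abundant in eggs, called egg forms here. The name does not mean highest in eggs. Gapdh DN12018 averaged 4920 RPKM in adult males against 2006 in unfertilized eggs. Glud1 DN19676 averaged 455 in females and 303 in hatched larvae against 223 in unfertilized eggs. It did not pass in limma from fertilized egg to 32 cells (-0.69, adjusted p = 0.452) and was called lower only after hatching. Its fall to 12 hpf is therefore not read as the loss of an egg store. Gapdh DN12018 went from 1275, 420, 1213 and 1531 RPKM (libraries 3 to 6) to 2.78, 5.03, 7.38 and 11.5, a difference of -7.16 ± 0.43 (adjusted p = 1.46e-12), or -8.33 relative to the median. Cs went from 1209, 684, 1029 and 1472 RPKM to 53.2, 51.8, 54.4 and 69.6, a difference of -4.19 ± 0.22 (adjusted p = 3.80e-13), or -5.37. Nme2 DN18148 went from 5829, 2277, 5566 and 5828 RPKM to 138, 204, 206 and 162, a difference of -4.69 ± 0.31 (adjusted p = 6.87e-12), or -5.86. For these 3 the groups were far apart. Glud1 DN19676 differed by less, from 126, 72.2, 61.7 and 158 RPKM to 34.2, 22.7, 19.1 and 76.8 (-1.54 ± 0.40, adjusted p = 0.00122, or -2.71), and its groups overlapped through 12 hpf library 6.

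The RNAs that rose were the late forms. Glud1 DN13919 was listed at 0 in 3 of the 8-cell whole-embryo libraries and at 1.05 RPKM in library 6, and it stood at 178, 335, 327 and 266 RPKM at 12 hpf (7.81 ± 0.32, adjusted p = 2.38e-14, or 6.64 relative to the median). NME2 DN12819 rose from 7.65, 10.9, 11.5 and 11.7 RPKM to 301, 298, 392 and 309 (4.84 ± 0.30, adjusted p = 2.61e-12, or 3.67). Nme2 DN12574 rose by 4.34 ± 0.33 (adjusted p = 5.22e-11, or 3.17). The 2 late Gapdh forms rose from near 0. DN16953 reached 7.93, 9.51, 10.3 and 45.6 RPKM (3.85 ± 0.49, adjusted p = 1.86e-07, or 2.68). DN14516 reached 41.7, 20.2, 28.5 and 22.5 RPKM (4.35 ± 0.77, adjusted p = 2.16e-05, or 3.18). SLC25A5 was low at both stages, going from 0.197, 0, 0.541 and 0.146 RPKM to 1.22, 0.476, 0.809 and 0.612, and did not pass (0.54 ± 0.32, adjusted p = 0.121, or -0.63 relative to the median). Quantile normalization turned its direction (-1.09, adjusted p = 0.015), and a fit of these libraries alone called it higher (adjusted p = 0.0494). Markers of other cells moved over the same interval. Of 46 muscle marker unigenes tested 44 were higher at 12 hpf (median 6.42), and the 59 of the list summed to 168 to 450 RPKM at 8 cells and 19205 to 24755 RPKM at 12 hpf. All 19 sperm and axoneme markers tested were higher, with sums of 29.1 to 45.3 and 539 to 687 RPKM. Of the 28 in that list, 6 averaged 1 RPKM or more at 8 cells and 20 at 12 hpf. For the 59 muscle markers these counts were 13 and 43. Many markers thus entered the test through 12 hpf libraries, which favoured a rise. Under quantile normalization 12 of these 19 were higher (median 2.02) and none lower, and 39 of the 46 muscle markers were higher and 2 lower. Of 18 egg and cell cycle markers 5 were higher and 9 lower (2 and 13 under quantile normalization), with sums of 4078 to 5967 and 958 to 1464 RPKM. Their part in the members' differences was not tested.

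**Figure D3:**
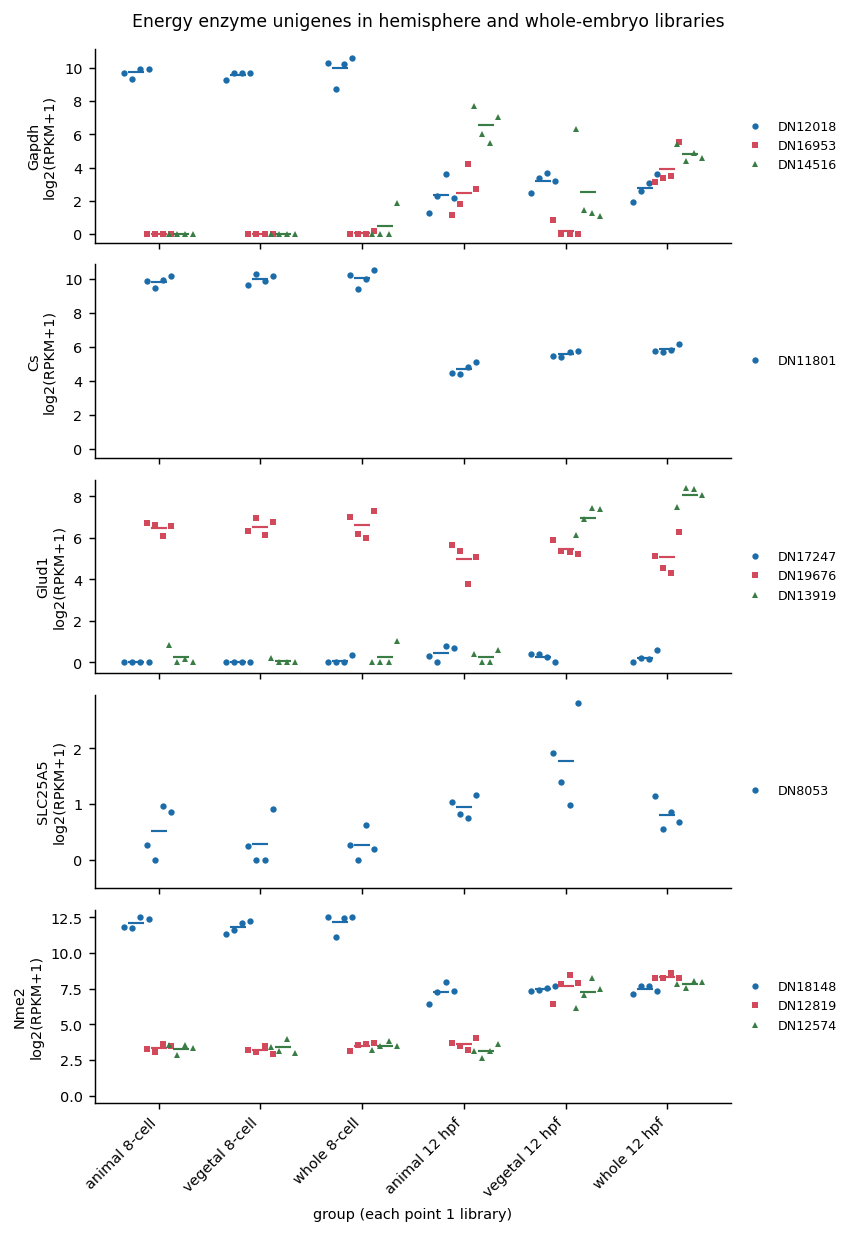
Log2(RPKM + 1) (vertical axis) of the 11 unigenes, a panel for each symbol, in the 6 hemisphere and whole-embryo groups (horizontal axis); each point is 1 library, in the order of library numbers 3 to 6, and dashes are group means. At 12 hpf Glud1 DN13919 and the Nme2 pair are high in vegetal and whole-embryo libraries. Gapdh DN14516 is high there in animal libraries and in vegetal library 3, at 80.3 RPKM.

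Samples titled animal and vegetal were compared at each time. At 8 cells limma called none of the 10 members, at an adjusted p of 1 for each, against 0.395% of unigenes called higher and 0.00637% lower in the vegetal hemisphere, and no member had an unadjusted p under 0.05. Gapdh DN16953 and DN14516 were listed at 0 in all of these libraries. Glud1 DN13919 averaged 0.038 RPKM in vegetal and 0.226 in animal libraries, and SLC25A5 0.270 and 0.491. These RNAs were too scarce for their tests to say how they were distributed. The stored egg RNAs were present in both hemispheres. Gapdh DN12018 was at 812, 639, 986 and 997 RPKM in animal and 624, 843, 809 and 832 in vegetal libraries, a difference of -0.13 ± 0.43. Cs was at 931, 686, 955 and 1122 RPKM in animal and 795, 1229, 947 and 1153 in vegetal libraries, or 0.16 ± 0.22. Nme2 DN18148 was at 3643, 3395, 5966 and 5411 RPKM in animal and 2528, 3116, 4316 and 4810 in vegetal libraries, or -0.32 ± 0.31. All groups overlapped. Within same-numbered pairs, Nme2 DN18148 was lower in the vegetal library in 4 of 4, and with the number as a block its adjusted p was also 1.

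At 12 hpf 5 of 10 members were higher and 2 lower in the vegetal than in the animal libraries, against 32.9% and 15.3% of all unigenes. The median of all unigenes was 0.30. Glud1 DN13919 was at 0.309, 0, 0 and 0.499 RPKM in animal and at 69.7, 120, 170 and 165 RPKM in vegetal libraries, a difference of 6.72 ± 0.32 (adjusted p = 5.86e-14), or 6.42 relative to the median. NME2 DN12819 was at 11.9, 10.0, 8.30 and 15.3 RPKM in animal and 87.0, 224, 351 and 243 in vegetal libraries, a difference of 4.07 ± 0.30 (adjusted p = 4.57e-11), or 3.76. Nme2 DN12574 differed by 4.10 ± 0.33 (adjusted p = 1.66e-10), or 3.80. In each of these the lowest vegetal library was number 3 and the groups were well separated. The mean share of DN13919 in Glud1 RNA was 72.9% in vegetal and 0.526% in animal libraries.

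The late Gapdh forms were higher in the animal libraries. DN14516 was at 205, 64.2, 43.4 and 132 RPKM in animal libraries and at 80.3, 1.74, 1.43 and 1.10 RPKM in vegetal libraries, a difference of -4.02 ± 0.77 (adjusted p = 0.000122), or -4.33 relative to the median. Vegetal library 3 overlapped with the animal range, and without it the difference was -5.29. DN16953 was at 1.27, 2.56, 17.9 and 5.54 RPKM in animal libraries, at 0.843 in vegetal library 3 and listed at 0 in the other vegetal libraries (-2.27 ± 0.49, adjusted p = 0.000403, or -2.57). Among egg forms, Cs was at 20.7, 20.0, 27.2 and 32.9 RPKM in animal and 43.3, 41.6, 51.5 and 53.6 in vegetal libraries (0.91 ± 0.22, adjusted p = 0.00165, or 0.60), without overlap. Gapdh DN12018 did not pass at 0.84 ± 0.43 (adjusted p = 0.112); with the library number as a block it was called higher in vegetal libraries (adjusted p = 0.023) and likewise without animal library 5 (1.26, adjusted p = 0.013), and quantile normalization turned its direction (-0.10, adjusted p = 0.848). SLC25A5 was called higher at 0.83 ± 0.32 (adjusted p = 0.0347), on values of 1.06, 0.777, 0.693 and 1.24 RPKM in animal and 2.78, 1.62, 0.986 and 6.07 in vegetal libraries. That call was lost without vegetal library 6 (0.48, adjusted p = 0.183), vegetal library 3 (0.0621) or animal library 4 or 5 (0.0719 and 0.0721), with a pseudocount of 0.1 (adjusted p = 0.217) and in a fit of these libraries alone (0.138), and its direction turned under quantile normalization (-0.10, adjusted p = 0.847).

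The hemisphere difference itself differed between 8 cells and 12 hpf for 5 members, with a change above 0 for 3 and below 0 for 2, against 24.6% and 11% of all unigenes. Gapdh DN16953 and DN14516 were listed at 0 in both 8-cell hemisphere groups, so their change is the 12 hpf difference again. Glud1 DN13919 was near 0 at 8 cells, so its change nearly repeats the 12 hpf difference of 6.72. The change in the vegetal minus animal difference was 6.92 ± 0.46 for Glud1 DN13919 (adjusted p = 6.72e-11), 4.25 ± 0.42 for NME2 DN12819 (adjusted p = 2.05e-08) and 4.03 ± 0.46 for Nme2 DN12574 (adjusted p = 1.71e-07). It was -4.02 ± 1.09 for Gapdh DN14516 (adjusted p = 0.00541) and -2.27 ± 0.69 for DN16953 (adjusted p = 0.0118), and quantile normalization lost the last of these calls (-2.05, adjusted p = 0.0894). For Cs it was 0.75 ± 0.32 (adjusted p = 0.0712) and for SLC25A5 1.06 ± 0.45 (adjusted p = 0.0723), short of the threshold. With the library number as a block both passed (adjusted p = 0.0224 and 0.0386), and each was higher in the vegetal library in 4 of 4 pairs at 12 hpf. Both changes were also called without animal 8-cell library 4 (adjusted p = 0.0354 and 0.044), Cs also without animal 12 hpf library 6 (0.0372), and SLC25A5 also without vegetal 12 hpf library 5 (0.0222) or vegetal 8-cell library 6 (0.0348). Markers of other cells moved with these results. Of 46 muscle marker unigenes tested, 37 were higher and 2 lower in vegetal 12 hpf libraries, and the 59 of the list summed to 5266 to 12110 RPKM there against 893 to 1715 in animal libraries. Of 19 sperm and axoneme markers tested, 17 were higher and 1 lower, with sums over 28 of 1040 to 1945 RPKM in vegetal and 78.8 to 112 in animal libraries. Their part in the differences of Glud1 and Nme2 was not tested.

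**Figure D4:**
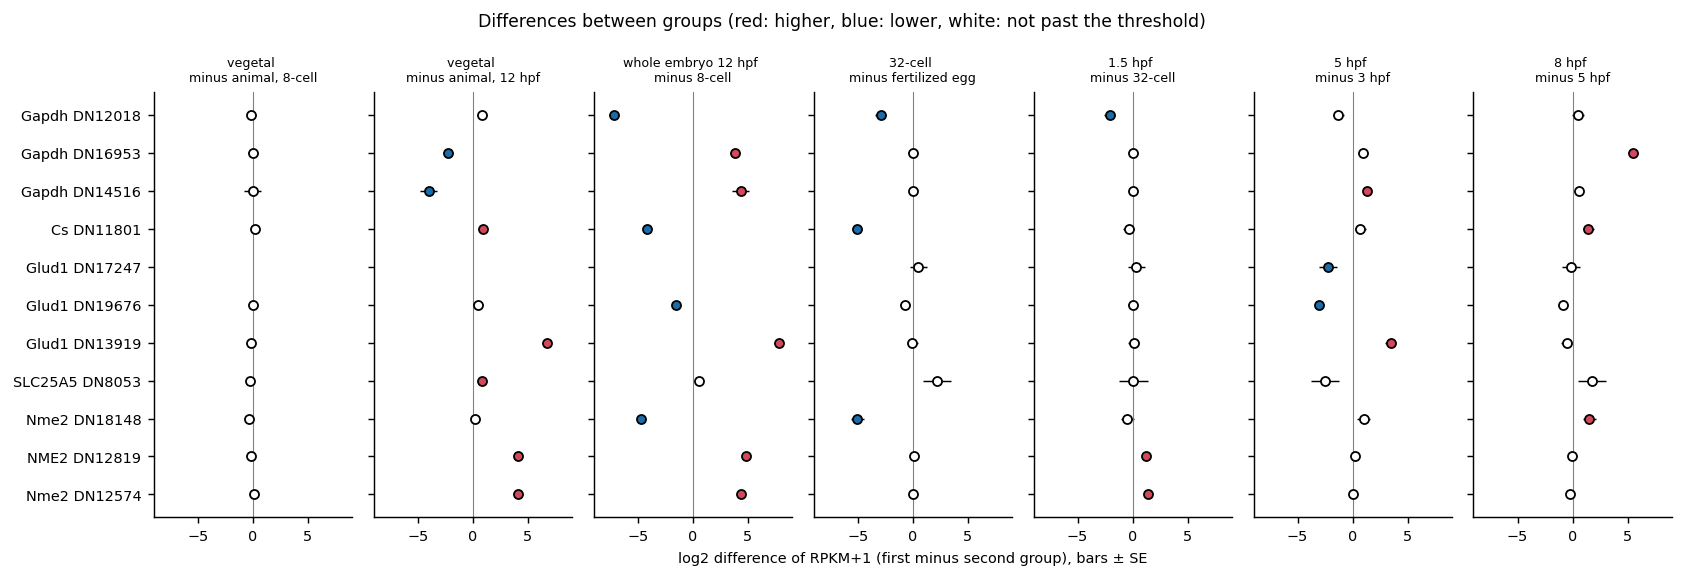
Log2 difference of RPKM + 1 (horizontal axis, first minus second group, bars ± SE) of each member (vertical axis) in the 7 comparisons tested; red points were higher, blue lower and white not past an adjusted p of 0.05, and bars shorter than the point are hidden. Forms abundant in eggs fall and late forms rise in whole embryos. No member passes between hemispheres at 8 cells, where Gapdh DN16953 and DN14516 were absent and Glud1 DN13919 and SLC25A5 nearly so.

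Other genes of the same pathways were read from lists that leave the members out. In whole embryos the shares of all unigenes to read them against are 56.3% higher and 22.9% lower. In whole embryos the citrate cycle and pyruvate dehydrogenase list had 19 of 24 unigenes lower and 2 higher at 12 hpf (median -1.82, against 1.17 for all unigenes), and 20 lower and 1 higher under quantile normalization. Mdh1, malate dehydrogenase, went from 820 ± 284 to 23.4 ± 11 RPKM (SD, n = 4; -5.10 ± 0.30, adjusted p = 1.39e-12). Pdhb, a subunit of pyruvate dehydrogenase, went from 477 ± 82.1 to 24.5 ± 2.18 RPKM (-4.22 ± 0.24, adjusted p = 6.33e-13). Of 12 glycolysis unigenes 7 were lower and 3 higher (median -2.21; 8 and 0 under quantile normalization). ENO1, enolase, differed by -4.17 ± 0.24 (adjusted p = 1.08e-12) and Pgam2, a phosphoglycerate mutase, by -3.0 ± 0.25 (adjusted p = 2.00e-10). Mitochondrial carriers went both ways, with 22 of 42 higher and 9 lower (median 0.72), close to the shares of all unigenes, turning to 11 and 17 (median -0.35) under quantile normalization. A pair of Slc25a3 unigenes, the phosphate carrier, differed by -4.61 ± 0.22 (adjusted p = 1.29e-13) and -4.42 ± 0.24 (adjusted p = 3.39e-13). Glutamate metabolism, also close to those shares, had 8 of 14 higher and 5 lower (median 2.00), turning to 3 and 4 (median -0.10) under quantile normalization. Got2, mitochondrial aspartate aminotransferase, fell by 5.23 ± 0.30 (adjusted p = 9.82e-13), while Gls2, a glutaminase, rose by 4.96 ± 0.39 (adjusted p = 9.74e-11). Of 19 nucleotide kinases 12 were higher and 5 lower (median 1.32; 10 and 5 under quantile normalization), led by NME8 (5.55 ± 0.30, adjusted p = 5.08e-13) and AK9 (3.73 ± 0.22, adjusted p = 1.50e-12), a pair known from cilia and flagella.

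During cleavage the citrate cycle list had 14 of 24 unigenes lower and 1 higher at 32 cells than in the fertilized egg (median -1.51), where 9.28% of all unigenes were lower and 1.64% higher. Under quantile normalization 4 were lower and none higher (median -1.03). Glycolysis had 2 of 13 lower, glutamate metabolism 1 of 19, mitochondrial carriers 4 of 44 lower with 1 higher, and nucleotide kinases 4 of 22; under quantile normalization neither of the last pair of lists had a call. The carriers were close to the shares of all unigenes. Between hemispheres at 12 hpf the lists were mixed, where 32.9% of all unigenes were higher and 15.3% lower. The vegetal libraries were higher for 5 of 24 and lower for 1 of the citrate cycle list, and 3 of 12 glycolysis unigenes lay on each side. Glutamate metabolism had 4 of 14 higher and 8 lower (median -1.08), mitochondrial carriers 12 of 42 higher and 6 lower, and nucleotide kinases 7 of 19 higher and 3 lower, the last pair of lists close to the shares of all unigenes. Quantile normalization gave 2 higher and 5 lower for glycolysis, 3 and 2 for the citrate cycle, 4 and 8 for glutamate metabolism, 9 and 7 for carriers and 6 and 4 for kinases, and put the median of each of these lists below 0. The vegetal-high RNAs named by the smallest p included NME8 (6.58 ± 0.30, adjusted p = 3.59e-14), AK9 (5.03 ± 0.22, adjusted p = 2.02e-14), SLC25A48 (5.92 ± 0.35, adjusted p = 9.96e-13), a further Slc25a3 (4.55 ± 0.48, adjusted p = 2.40e-08), GAD1, glutamate decarboxylase (3.60 ± 0.27, adjusted p = 7.96e-11), and GOT1, cytosolic aspartate aminotransferase (3.38 ± 0.37, adjusted p = 4.19e-08). They also included PKLR, a pyruvate kinase (2.55 ± 0.36, adjusted p = 2.63e-06), Aldoc, an aldolase (2.05 ± 0.36, adjusted p = 3.91e-05), IDH2, isocitrate dehydrogenase (1.45 ± 0.22, adjusted p = 7.51e-06), and SUCLA2, of succinyl-CoA synthetase (1.22 ± 0.27, adjusted p = 0.000639).

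The unigenes whose means over the 15 staged groups were most like the leading member of each symbol were ranked by Pearson r on log2 values, as a description. The 15 groups include the eggs and adults by which the members were chosen, so high r with other RNAs of those groups is partly given by the choice. For Gapdh DN12018 they were Mdh1 (r = 0.986), the proteasome subunit Psma6 (0.968) and Pdha1 of pyruvate dehydrogenase (0.962). For Cs they were MDH2, mitochondrial malate dehydrogenase (0.986), Etfb, of electron transfer flavoprotein (0.966), and NDUFA9, of respiratory complex I (0.961). For Nme2 DN18148 they were Cs itself (0.945), MPC2, of the mitochondrial pyruvate carrier (0.944), and MDH2 (0.940). The male forms were far higher in adult males than in any other of the 15 groups, so their r is set mostly by that group. Any RNA restricted to males would rank near them. Glud1 DN17247 was nearest to a pair of PRKG1 unigenes, named for a cGMP-dependent protein kinase (0.997 each), and PIFO (0.997). SLC25A5 was nearest to Odf3, named for an outer dense fibre protein of sperm tails (0.982), to the creatine kinase unigene CKM DN21356 (0.981) and to CNFN (0.977). That CKM unigene averaged 28029 RPKM in males and 3.65 in females, so it also sets the muscle marker sum of males, which was 21956 and 35146 RPKM. It made up 98.2% of that sum. Of the 59 muscle marker unigenes, 52 had the lower mean in males and 5 the higher.

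SLC25A5 and Glud1 DN17247 both had their highest stage values in tadpole library 3 and hatched larva library 1. As a percent of the male mean, SLC25A5 was 0.856% in tadpole library 3 and 0.918% in hatched larva library 1, and Glud1 DN17247 was 1.05% and 1.15% there. The ratio of SLC25A5 to Glud1 DN17247 was 9.84 and 9.62 in these libraries and 12.7 and 11.5 in the males. In the other 37 stage libraries SLC25A5 was at most 0.170% and Glud1 at most 0.148% of the male mean. Other male-high RNAs were high in the same libraries. A set of 175 further unigenes, chosen after their values were seen (at least 200 RPKM in males, under 10 in females and a median under 2 over the stage libraries), had a median of 1.35% of the male level in tadpole library 3 and 1.57% in hatched larva library 1, against at most 0.359% elsewhere. Odf3 DN9751 was at 67.7 and 65.5 RPKM in those libraries, and Tssk6, a kinase of sperm, at 15.8 and 21.7, where the other 37 stage libraries had at most 13.4 RPKM of Odf3 (hatched larva library 3) and 2.10 of Tssk6 (8-cell library 2). The 8-cell library 2, with 56.6 RPKM of SLC25A5, held 0.104% of the male level by the median of the set. The part of these RNAs in the SLC25A5 and Glud1 values of the libraries was not tested.

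**Figure D5:**
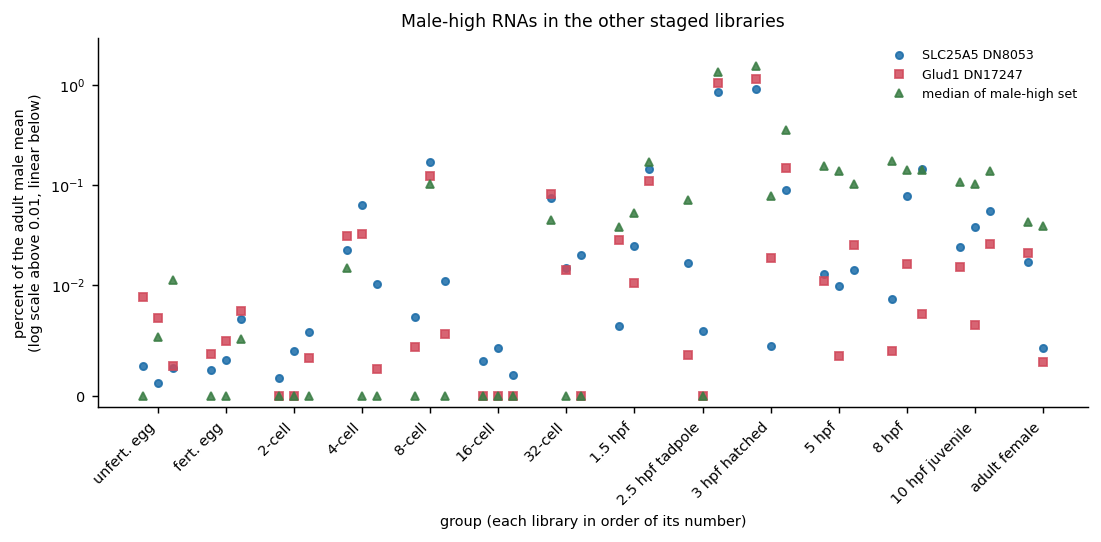
Level as a percent of the adult male mean (vertical axis, log scale above 0.01 and linear below) of SLC25A5, Glud1 DN17247 and the median of 175 other male-high unigenes in each library of the 13 stages and adult females (horizontal axis). Tadpole library 3 and hatched larva library 1 stand near 1% for all 3 measures, above every other library.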

How the data were processed

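RNA was sequenced in 67 libraries, from total RNA extracted with TRIzol, with strand kept only in staged libraries, per the labels' protocols. The authors deposited RPKM values per unigene of a de novo assembly, with HISAT2 named in the submitters' processing notes while its version is not given in these sources. Both tables were normalized by the authors and tested separately. The authors' deposited sequencing table gave the count of reads per library, the percent aligned and a strand fraction (73.4% to 99.9%). It marks 7 of 43 libraries with a plus sign between sample numbers, which is not explained. Each staged comparison tested includes such a library. A number joined in it recurs, partly in another written form, in another library of its group. Whether these libraries are pools or repeats of the same material is not stated. A further 138 columns headed by library names were not used, and the stage labelled 2.5 hpf is headed otherwise in the table.

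Values were tested as log2(RPKM + 1) with limma 3.58.1 in R 4.3.3 (lmFit, eBayes with a trend), 1 mean per group, over unigenes at 1 RPKM or more in at least 4 hemisphere libraries (15697) or 2 staged libraries (18704), with Benjamini-Hochberg adjustment and 18 or 28 residual degrees of freedom. The fit was tested on simulated data. The text names all members, the 3 unigenes most like the leading one of each symbol (a group mean of 10 RPKM or more), and the 2 called unigenes of smallest p per list in 2 comparisons; further names were chosen after their values were seen. The members, lists and comparisons were chosen with earlier results of these data known. Same-numbered animal and vegetal libraries deviated together (correlations 0.550 to 0.701 at 8 cells and 0.144 to 0.246 at 12 hpf), so the number was taken to pair them, a hint from the data. Relative depth, read from the steps between low values, ran from 0.304 to 2.96 in the staged set. Alternatives were another pseudocount, no filter, quantile normalization, the compared libraries alone, each library left out, a replicate block and, added after seeing the data, the lane as a term, libraries that stand apart left out and a test of the change between times. Tables were made in pandas 2.3.3, numpy 2.4.6 and Python 3.11.15, and figures in matplotlib 3.10.9. No sequences are printed.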

Additional observations from a re-analysis of the deposited data

Results flagged for a closer look

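In groups of 4 libraries, a library whose gap to the others is large against the group's range was looked for in 60 groups of member values, and 13 were found. In 6 of them the other 3 libraries were listed at 0 and a single value stood above it: Gapdh DN16953 at 0.843 RPKM in vegetal 12 hpf library 3, and, in whole-embryo 8-cell library 6, Gapdh DN16953 at 0.137, DN14516 at 2.66, Glud1 DN17247 at 0.262 and DN13919 at 1.05 RPKM, and Glud1 DN13919 at 0.152 RPKM in a vegetal 8-cell library. With the other 3 libraries at 0 the gap is the whole range whatever the value, so these 6 are found by construction; the other 7 came from 54 groups, where chance flags about 1 in 20. Whole-embryo 8-cell library 6 thus held all 4 late or male forms that were listed at 0 in the rest of its group.

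Gapdh DN14516 stood at 80.3 RPKM in vegetal 12 hpf library 3, against 1.10 to 1.74 in the others, and Gapdh DN16953 at 45.6 RPKM in whole-embryo 12 hpf library 6, against 7.93 to 10.3. In that library Cs was also highest, at 69.6 RPKM. NME2 DN12819 was highest at 392 RPKM in whole-embryo 12 hpf library 5. Lowest values that stood off were Nme2 DN18148 at 2277 RPKM in whole-embryo 8-cell library 4, where the others had 5566 to 5829, and Gapdh DN12018 at 624 RPKM in vegetal 8-cell library 3. Glud1 DN13919 was at 0.795 RPKM in animal 8-cell library 3.

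The vegetal minus animal difference at 12 hpf differed from that at 8 cells, by a test of the change in limma, for Gapdh DN16953 (-2.27, adjusted p = 0.0118), Gapdh DN14516 (-4.02, adjusted p = 0.00541), Glud1 DN13919 (6.92, adjusted p = 6.72e-11), NME2 DN12819 (4.25, adjusted p = 2.05e-08) and Nme2 DN12574 (4.03, adjusted p = 1.71e-07). With the library number as a block it also did for Cs (0.75, adjusted p = 0.0224) and SLC25A5 (1.06, adjusted p = 0.0386). In the animal and vegetal 8-cell libraries Gapdh DN16953 and DN14516 were listed at 0 and Glud1 DN13919 was near 0. The changes of these RNAs therefore restate their 12 hpf differences.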

How the results depend on the processing

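With no filter, all 34 calls were kept, including 5 of a change between times. With compared libraries alone, 5 minus 3 hpf kept 1 call of 4 and 8 minus 5 hpf 1 of 3. Quantile normalization left 0 of 3 calls between 32 cells and 1.5 hpf. With a library left out, the counts ran from 1 to 3 for 1.5 hpf minus 32 cells, 3 to 6 for 5 minus 3 hpf, 1 to 2 for 8 minus 5 hpf, 6 to 7 for hemispheres at 12 hpf and 5 to 7 for the change between times, and stayed at 0, 9 and 3 in the other comparisons.

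Quantile normalization moved the median of all unigenes from 0.30 to -0.20 between hemispheres at 12 hpf, from 1.17 to -0.18 in whole embryos, from 0.17 to -0.07 at 1.5 hpf and from 0.31 to -0.06 at 5 hpf. Calls over all unigenes went from 5157 higher and 2409 lower to 3437 and 4105 between hemispheres at 12 hpf, and from 8831 and 3587 to 4138 and 5564 in whole embryos. They went from 307 and 1735 to 508 and 578 at 32 cells, from 2156 and 563 to 1237 and 1210 at 1.5 hpf, from 5380 and 1304 to 2820 and 2981 at 5 hpf and from 3549 and 2013 to 2687 and 2869 at 8 hpf. It reversed SLC25A5 (-0.10) and Gapdh DN12018 (-0.10) between hemispheres at 12 hpf, the change between times of Gapdh DN12018 (-0.038), and SLC25A5 in whole embryos (-1.09). Other reversals were of values that passed in neither fit. Under quantile normalization these were Glud1 DN19676 (-0.038) and Nme2 DN12574 (-0.080) between hemispheres at 8 cells, Nme2 DN12574 at 5 hpf (-0.069), and at 1.5 hpf Gapdh DN16953 (-0.059) and DN14516 (-0.073), Glud1 DN17247 (-0.21), DN19676 (-0.088) and DN13919 (-0.15), and SLC25A5 (-0.62).

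With the lane as a term they were Nme2 DN12574 at 32 cells (-0.059) and 5 hpf (-0.092) and Glud1 DN19676 at 1.5 hpf (-0.25). The cause of these changes was not tested. Leaving out a library reversed 28 uncalled values. Between hemispheres at 8 cells the values ran from -0.28 to 0.0015 for Glud1 DN13919, -0.12 to 0.21 for Nme2 DN12574 and -0.093 to 0.19 for Glud1 DN19676. Between hemispheres at 12 hpf the values ran from -0.026 to 0.48 for Nme2 DN18148. At 32 cells the values ran from -0.078 to 0.0087 for Glud1 DN13919, -0.11 to 0.17 for Nme2 DN12574 and -0.036 to 0.23 for NME2 DN12819. At 1.5 hpf the values ran from -0.63 to 0.096 for Cs, -0.11 to 0.13 for Glud1 DN19676, -0.99 to 1.0 for SLC25A5 and -0.13 to 0.83 for Glud1 DN17247. At 5 hpf the values ran from -0.18 to 0.32 for Nme2 DN12574 and -0.044 to 0.54 for NME2 DN12819. At 8 hpf the values ran from -0.26 to 0.057 for Glud1 DN17247, -0.36 to 0.22 for NME2 DN12819 and -0.46 to 0.026 for Nme2 DN12574.

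The replicate block left whole embryos at 9 calls and moved hemispheres at 12 hpf from 7 to 8 (Gapdh DN12018, 0.84, adjusted p = 0.023) and the change between times from 5 to 7 (Cs and SLC25A5), and it changed no other call. Between whole embryos the numbers do not pair the libraries (correlations -0.05 to 0.11, with 2 of 4 libraries nearest to their own number). Staged replicate numbers only name the libraries, so no paired fit was made there. Without vegetal 12 hpf library 3 and whole-embryo 8-cell library 6, SLC25A5 at 12 hpf lost its call (0.79, adjusted p = 0.07); without tadpole library 3 and hatched larva library 1, Glud1 DN17247 at 5 hpf did (-1.04, adjusted p = 0.0998). Depth over the staged libraries varied 9.71-fold, which limits values near 0.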
